A study of Mus musculus with 6 samples.

Results

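The Toll-like receptors and the proteins that serve them were followed through sorted mouse cells after stroke. The genes are Tlr1, Tlr2, Tlr3, Tlr4, Tlr6, Tlr7 and Tlr9, the co-receptors Cd14 and Ly96, and the adaptor Myd88. They were chosen by name as receptors, co-receptors and adaptor of 1 pathway, and all 10 were found among the 51361 genes of the count table. All 10 passed the filter on low counts that left 16657 genes for testing. The cells were sorted as regulatory T cells (Tregs; CD4+CD25+Foxp3+) from male C57BL/6N mice aged 9 weeks that carried Tg(Foxp3-DTR/EGFP)23.2Spar, a transgene in which the Foxp3 promoter drives a diphtheria toxin receptor fused to a green fluorescent protein. Mice of the tMCAO groups had 1 middle cerebral artery blocked for 60 min and reopened, a model of ischaemic stroke, and brain and blood were taken 14 days later. The sham group gave blood after an operation without the occlusion. All groups carry the transgene, and the labels name no diphtheria toxin. Each of the 3 groups, tMCAO brain, tMCAO blood and sham blood, has 2 libraries, each a bulk sample of 500 to 1000 cells. Whether libraries of 1 group stem from different animals is not stated by the labels. The p-values therefore measure only how far these libraries spread, which may be technical.

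Toll-like receptors recognise conserved molecules of microbes and molecules released by damaged cells. Tlr2 pairs with Tlr1 or Tlr6 at the cell surface to bind lipopeptides, while Tlr4 binds lipopolysaccharide together with Ly96 (the MD-2 protein), to which Cd14 hands the ligand. Tlr3, Tlr7 and Tlr9 bind nucleic acids in endosomes. Myd88 carries the signal of every mouse Toll-like receptor except Tlr3 to kinases and on to NF-kB, which switches on cytokine genes. Macrophages, monocytes and microglia, the resident macrophages of the brain, are the textbook sites of high Tlr2, Tlr4 and Cd14. T cells carry several of these receptors at low levels.

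The marker genes place a limit on every value below. Total counts per library ranged from 14348179 to 24460894. Foxp3, the transcription factor that defines Tregs, had 0.726 and 19.6 CPM (counts scaled to a common library size of 1000000) in tMCAO brain libraries 1 and 2, 0.538 and 5.18 in the tMCAO blood pair and 50.1 and 60.7 in the sham pair. Foxp3 was thus near 0 in library 1 of both tMCAO groups, and all 4 tMCAO libraries were below both sham libraries. The summed level of 16 T cell markers ran from 334 to 1540 CPM in the tMCAO brain libraries, 683 to 3580 in those of tMCAO blood and 8692 to 8832 in the sham libraries, with no marker at 0 in any library. The sum of 14 monocyte and macrophage markers was 12192 to 39406 CPM in the tMCAO brain libraries, 10313 to 29739 in those of tMCAO blood and 6033 to 7344 in the sham libraries, again with no marker at 0. Lyz2, the macrophage lysozyme, alone gave 30329 and 8455 CPM of that sum in the tMCAO brain libraries, 21488 and 4980 in those of tMCAO blood and 5882 and 4863 in the sham libraries. Not all markers followed the sum: Ccr2 had 82.1 and 199 CPM in the brain libraries and 324 and 232 in the sham pair, and Chil3 had 24.0 and 1.88 in the brain libraries and 111 and 169.5 in the sham pair, neither of them called between these groups (edgeR). The sum of 12 microglia markers was 9339 to 10498 CPM in the tMCAO brain libraries, against 194 to 210 in those of tMCAO blood and 207 to 282 in the sham libraries, where Sall1 had no count in any of the 4 blood libraries. Neutrophil markers (12 genes) summed to 249 to 2100 CPM in the tMCAO brain libraries, 322 to 6554 in those of tMCAO blood and 20.6 to 21.6 in the sham libraries, with 7 and 9 of them at 0 in the sham libraries. Dendritic cell markers (12 genes) summed to 828 and 1321 CPM in the tMCAO brain libraries. The sums were 54.1 and 119.9 in those of tMCAO blood and 561 and 757 in the sham libraries. Ccr7 alone gave 492 and 675 CPM of the sham sums and 589 and 746 of the brain sums. Of the tMCAO blood sums it gave only 3.61 and 41.1. The sum had the same order of groups as Tlr9, but between the blood groups that order rested mostly on Ccr7. There, 3 of the 12 markers were higher in tMCAO blood without overlap and 4 were lower. In brain, 3 of the 12 rose versus each blood group. The part of dendritic cells in the results was not tested. Red cell markers (10 genes) took 15.9% and 17.5% of all counts in sham blood, 0.112% and 3.86% in tMCAO blood and at most 0.00807% in tMCAO brain. The monocyte and macrophage sum was thus higher in all 4 tMCAO libraries than in sham blood, and the part of those cells in the results was not tested. The microglia sum separated brain from blood, where its part was not tested either, and was no higher in tMCAO blood than in sham blood. In bulk libraries, fewer cells of a type and less RNA per cell cannot be told apart.

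**Figure D1:**
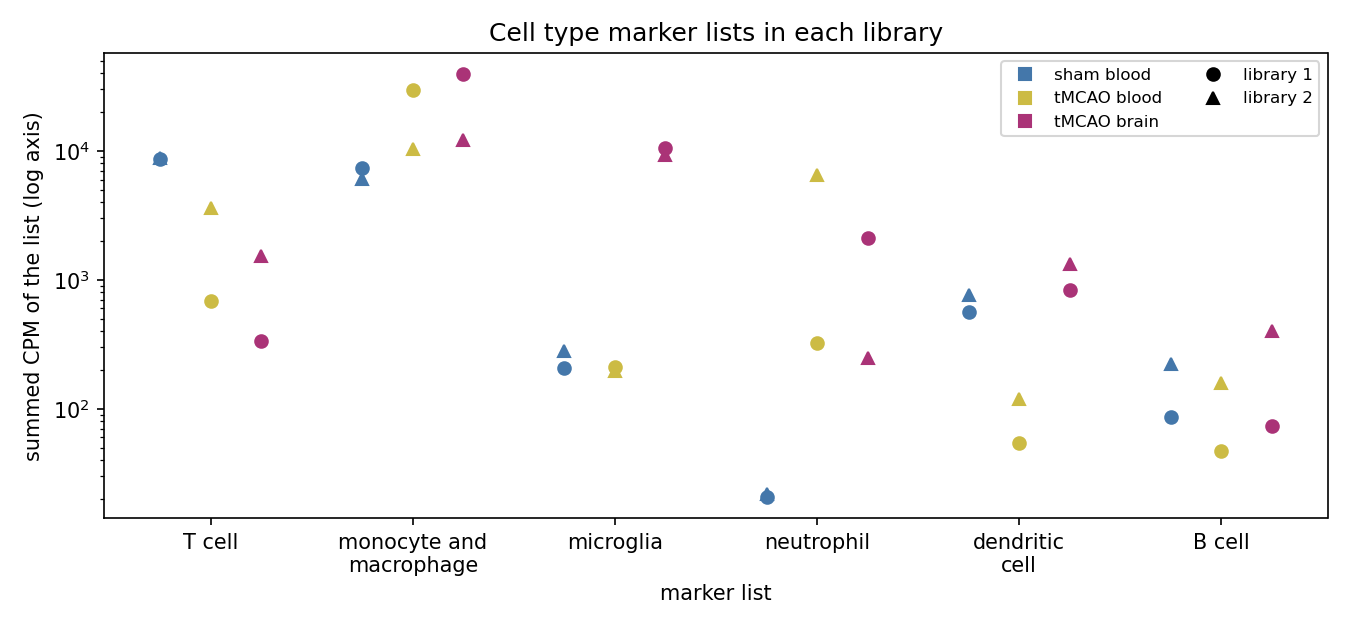
Summed CPM (scaled by TMM, log axis) of 6 cell type marker lists in each of the 6 libraries; colour gives the group and the symbol the library. The microglia sum was 9339 to 10498 CPM in tMCAO brain and at most 282 in blood, while the T cell sum was highest in sham blood, at 8692 and 8832.

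The 3 comparisons were made from 1 fit, and they share libraries: tMCAO brain versus tMCAO blood, tMCAO blood versus sham blood, and tMCAO brain versus sham blood. The count of genes past the threshold (edgeR, adjusted p under 0.05 over all genes tested) was read beside the same share of all genes. In tMCAO brain versus sham blood, 4 of the 10 genes rose (Cd14, Tlr2, Tlr3 and Tlr7) and 0 fell, where 8.01% of all tested genes rose and 2.62% fell (10.6% in either direction). In tMCAO blood versus sham blood, only Cd14 of the 10 rose and 0 fell, where 4.33% of all tested genes rose and 3.15% fell (7.48% in either direction). In tMCAO brain versus tMCAO blood, only Tlr2 of the 10 rose and 0 fell, where 3.53% of all tested genes rose and 1.37% fell (4.9% in either direction). A single call among 10 genes, as in the last 2 comparisons, is near those shares. The median log2 difference of the 10 genes was 1.96, 1.57 and 0.87 in the same order, against 0.09, 0.11 and 0.06 over all genes tested.

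Most of the 10 genes had both libraries of one group above both of the other. In tMCAO brain versus sham blood this held for 9 of 10 genes in the upward direction and 0 in the other, where the shares over all tested genes were 34.9% and 29.7%. In tMCAO blood versus sham blood, 7 of 10 were higher and 2 lower without overlap, where the shares over all genes were 33.6% and 30.4%. In tMCAO brain versus tMCAO blood, 6 of 10 were higher and 0 lower without overlap, where the shares were 31.4% and 25.9%. Scaling to raw library totals in place of TMM moved the median over all genes by −0.22 in tMCAO brain versus tMCAO blood, by 0.10 in tMCAO blood versus sham blood and by −0.12 in tMCAO brain versus sham blood. The share of upward calls among all calls then went from 72.1% to 53.9% in the first of these and from 57.9% to 70.6% in the second, and none of the 10 genes changed direction.

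**Figure D2:**
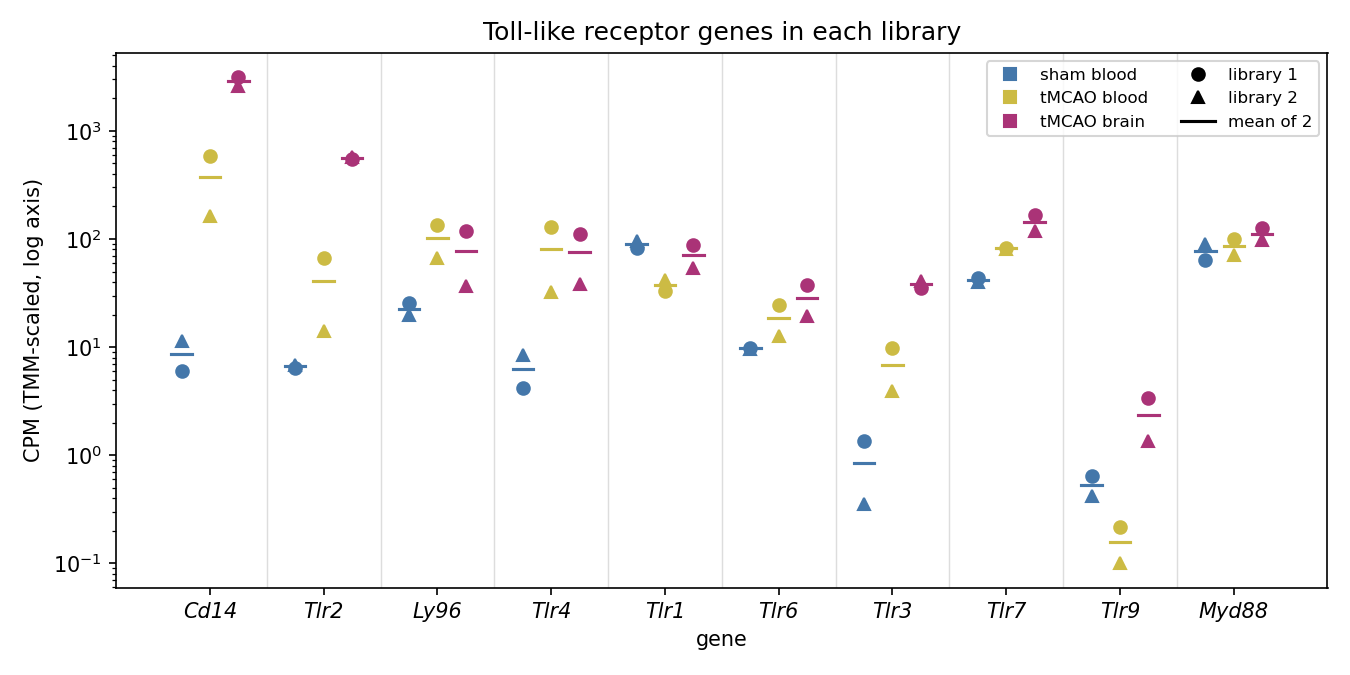
CPM (scaled by TMM, log axis) of the 10 genes in each library; colour gives the group, the symbol the library and the bar the mean of 2 libraries. Cd14 ran from 6.03 CPM in sham blood library 1 to 3139 in tMCAO brain library 1, while Myd88 stayed between 63.9 and 127 CPM.

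Among the lipopolysaccharide receptor genes, Cd14, the co-receptor that hands the ligand to the receptor complex, had the widest range of the 10 genes. Cd14 lies on the minus strand of chromosome 18 (GRCm38, the mouse build of the files). It stood at 3139 and 2614 CPM in the tMCAO brain libraries, 589.6 and 164 in those of tMCAO blood and 6.03 and 11.3 in the sham libraries. The order of the groups had no overlap at either step, and library 1 of tMCAO blood was more than 3 times as high as library 2. Cd14 rose in tMCAO blood versus sham blood by a log2 change of 5.45 ± 0.78, or 43.6-fold (edgeR, adjusted p = 0.0313). It also rose in tMCAO brain versus sham blood, by 8.38 ± 0.89 or 333-fold (edgeR, adjusted p = 0.00994). Between brain and blood of tMCAO mice the log2 difference was 2.93 ± 0.69, which missed the threshold (edgeR, adjusted p = 0.06398). Without library 1 of both tMCAO groups the log2 change was 4.29 in blood and 8.21 in brain versus sham blood. Each tMCAO group then holds 1 library and only the sham pair gives the spread, so these values, and those of the other genes without these libraries, are given with no test. The call in blood was lost without tMCAO blood library 1 (log2 4.24, edgeR adjusted p = 0.0715), sham library 1 (adjusted p = 0.192) or sham library 2 (adjusted p = 0.262). The call versus sham blood for brain was lost without sham library 1 (edgeR, adjusted p = 0.108) or 2 (adjusted p = 0.0993).

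Tlr4 itself, on the plus strand of chromosome 4 (66827584 to 66930284), was high in both tMCAO groups and did not separate them. Its level was 112 and 38.6 CPM in the tMCAO brain libraries, 129 and 32.3 in those of tMCAO blood and 4.17 and 8.37 in the sham libraries. Library 1 was about 3 to 4 times as high as library 2 in both tMCAO groups, these groups overlapped fully, and all 4 lay above both sham libraries. The log2 difference was 3.68 ± 0.87 for tMCAO blood versus sham blood (edgeR, adjusted p = 0.0553) and 3.58 ± 0.87 for tMCAO brain versus sham blood (edgeR, adjusted p = 0.0515), both just outside the threshold. Brain and blood of tMCAO mice differed by −0.10 ± 0.77 (95% interval −1.98 to 1.78; edgeR, adjusted p = 0.9499). Tlr4 passed the threshold in 9 of 14 alternative settings for brain versus sham blood and in 6 of 14 for tMCAO blood versus sham blood, leaving aside the setting with 1 library in each tMCAO group.

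Ly96, which holds the lipid part of lipopolysaccharide beside Tlr4, followed a similar order. The gene is found on the plus strand of chromosome 1 (16688051 to 16709611). It stood at 118 and 36.5 CPM in the tMCAO brain libraries, 135 and 67.2 in those of tMCAO blood and 25.5 and 19.7 in the sham libraries. Library 1 was again the higher of each tMCAO pair, and all 4 tMCAO libraries were above both sham libraries. The log2 difference from sham blood was 2.16 ± 0.63 in tMCAO blood (edgeR, adjusted p = 0.0831) and 1.77 ± 0.62 in tMCAO brain (edgeR, adjusted p = 0.117). Brain and blood differed by −0.39 ± 0.60 (95% interval −1.84 to 1.07; edgeR, adjusted p = 0.704). The ratio of Cd14 to Ly96 counts was 26.6 and 71.6 in the tMCAO brain libraries, 4.37 and 2.44 in those of tMCAO blood and 0.236 and 0.571 in the sham libraries. Those ratios did not overlap between any of the groups.

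**Figure D3:**
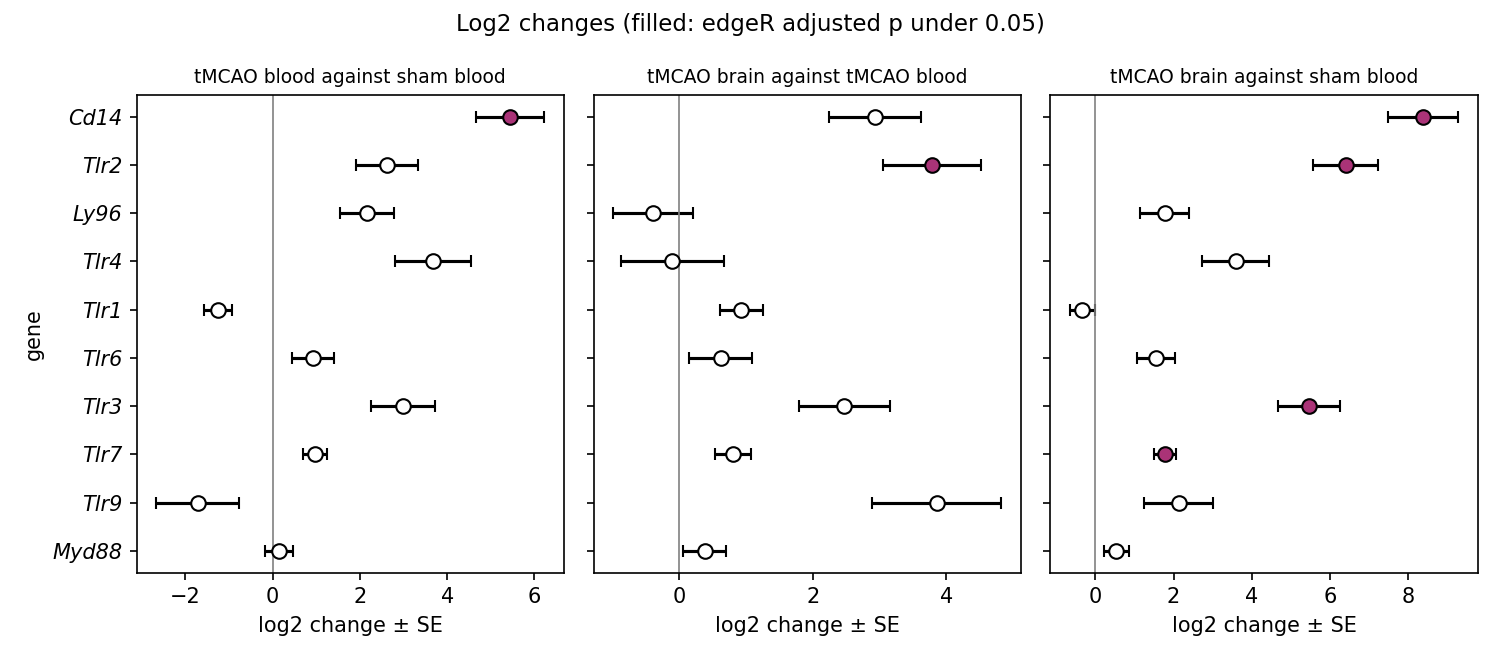
Log2 change with its standard error (bars) for the 10 genes in each of the 3 comparisons; filled points passed the edgeR threshold (adjusted p under 0.05). Filled points are Tlr2 for tMCAO brain versus tMCAO blood, Cd14 for tMCAO blood versus sham blood, and Cd14, Tlr2, Tlr3 and Tlr7 for tMCAO brain versus sham blood.

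Tlr2, the shared partner of the lipopeptide receptors, was the 1 gene of the 10 to pass the threshold between blood and brain of tMCAO mice. It was not the only one higher in brain, where 6 of the 10 were higher without overlap. Tlr9 had a log2 difference of 3.86 ± 0.97 (edgeR, adjusted p = 0.0708) and Cd14 of 2.93 ± 0.69 (adjusted p = 0.06398). Tlr2 occupies 83836272 to 83841767 on the minus strand of chromosome 3. It stood at 552 and 571 CPM in the tMCAO brain libraries, 67.3 and 14.2 in those of tMCAO blood and 6.42 and 6.83 in the sham libraries. The brain libraries lay within a few percent of each other, the tMCAO blood libraries were almost 5-fold apart, and no groups overlapped. Tlr2 rose by 3.78 ± 0.73, or 13.8-fold, in tMCAO brain versus tMCAO blood (edgeR, adjusted p = 0.0447). It rose by 6.40 ± 0.83, or 84.7-fold, in tMCAO brain versus sham blood (edgeR, adjusted p = 0.0138). In tMCAO blood versus sham blood the log2 difference was 2.62 ± 0.70 (edgeR, adjusted p = 0.0708). Without library 1 of both tMCAO groups the log2 change in brain was 5.25 versus tMCAO blood and 6.40 versus sham blood, given with no test. The call versus tMCAO blood was lost without brain library 1 (edgeR, adjusted p = 0.0889), brain library 2 (0.0947), sham library 1 (0.122) or sham library 2 (0.121), and with only the 2 groups compared in the fit (0.107). The call versus sham blood was lost without sham library 1 (edgeR, adjusted p = 0.133) or 2 (adjusted p = 0.129).

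The promoter stretches of Tlr2 and Tlr1 are shown because these genes, whose proteins pair, had differences of opposite sign between the blood groups. Windows of 250 bases before to 50 after the gene start (RefSeq, GRCm38.p6) were found for 6 of the 10 genes, and not for Cd14, Ly96, Tlr4 and Tlr7. Only bases upstream of every annotated start are printed, 5′ to 3′ on the gene's own strand, with position −1 next to the RefSeq start. Capitals in the Tlr2 stretch, chr3:83841768-83841858 on the minus strand (positions −250 to −160), mark overlapping matches to the NF-kB motif at −173 to −163. Capitals in the Tlr1 stretch, chr5:64933564-64933808 on the minus strand (positions −250 to −6), mark a match to GAGGAAGT, the core bound by PU.1, at −23 to −16.
Tlr2: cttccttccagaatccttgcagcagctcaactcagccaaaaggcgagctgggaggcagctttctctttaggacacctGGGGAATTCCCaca
Tlr1: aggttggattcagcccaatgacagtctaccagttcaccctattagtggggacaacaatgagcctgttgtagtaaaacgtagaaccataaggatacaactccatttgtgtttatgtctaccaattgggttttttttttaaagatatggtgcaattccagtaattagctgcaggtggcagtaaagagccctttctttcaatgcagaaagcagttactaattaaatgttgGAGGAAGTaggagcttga
On both strands, an NF-kB match was present in 8.95% of the 25537 promoter windows of the table and GAGGAAGT in 3.18%. The Tlr2 window held a further NF-kB match at −8 to 2 and the Tlr3 window 1 that starts at −211. The Myd88 window held a match at −40 to −31 to the interferon-stimulated response element, which 3.34% of windows hold. A Tlr6 window held 2 overlapping matches to the same element on the opposite strand, starting at −116 and −110. The Tlr9 window held GAGGAAGT on the opposite strand at 11 to 18, past the gene start. TATAAA, present in 12.8% of windows, was matched in the Myd88 window and in another Tlr6 window. A match is a run of letters and shows no binding in these cells.

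Tlr1, the first partner of Tlr2, was high in sham blood and had the opposite order between the blood groups. It lies on the minus strand of chromosome 5 (64924679 to 64933563). It stood at 88.1 and 54.1 CPM in the tMCAO brain libraries, 33.3 and 41.4 in those of tMCAO blood and 82.9 and 96.1 in the sham libraries. Both tMCAO blood libraries were below every other library, and brain and sham blood overlapped. The log2 difference was −1.26 ± 0.32 for tMCAO blood versus sham blood (edgeR, adjusted p = 0.0646), 0.93 ± 0.32 for tMCAO brain versus tMCAO blood (adjusted p = 0.127) and −0.33 ± 0.32 for tMCAO brain versus sham blood (95% interval −1.11 to 0.44; edgeR, adjusted p = 0.537). No comparison passed the threshold, although the lower level in tMCAO blood did so in 3 of 14 alternative settings, with the same setting left aside. The ratio of Tlr2 to Tlr1 counts was 6.26 and 10.6 in the tMCAO brain libraries, 2.02 and 0.343 in those of tMCAO blood and 0.0774 and 0.07101 in the sham libraries. The sham libraries had the lowest ratios of the 6 and the brain libraries the highest.

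Tlr6, the other partner of Tlr2, lies beside Tlr1 on the same strand (64952031 to 64960097). It stood at 37.5 and 19.3 CPM in the tMCAO brain libraries, 24.3 and 12.7 in those of tMCAO blood and 9.76 and 9.64 in the sham libraries. Brain and tMCAO blood overlapped, and all 4 tMCAO libraries lay above both sham libraries. The log2 difference was 0.62 ± 0.47 for tMCAO brain versus tMCAO blood, 0.93 ± 0.48 for tMCAO blood versus sham blood and 1.55 ± 0.48 for tMCAO brain versus sham blood (edgeR, adjusted p = 0.422, 0.242 and 0.0893). No comparison passed the threshold.

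The counts of Tlr1 and Tlr6 are less certain than those of the other surface receptors, since the coding sequences hold identical runs. Of the 75-base words of each transcript set, 10.6% in Tlr1 and 9.25% in Tlr6 also occur in another gene, and 340 words are common to both. The shared words form 4 identical coding runs of 636 bases in all. How reads with more than 1 position were counted is not given in the sources used here. The longest run, 229 bases, is shown because read pairs that lie wholly inside it match both genes; it lies at chr5:64925537-64925765 in Tlr1 and chr5:64953828-64954056 in Tlr6, both on the minus strand of GRCm38.
Tlr1 and Tlr6: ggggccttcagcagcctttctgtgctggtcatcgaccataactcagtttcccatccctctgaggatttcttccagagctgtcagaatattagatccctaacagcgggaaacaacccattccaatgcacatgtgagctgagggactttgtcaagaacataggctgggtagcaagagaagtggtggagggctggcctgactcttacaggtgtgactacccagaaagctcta
The difference between tMCAO blood and sham blood was below 0 for Tlr1 and above 0 for Tlr6. Tlr3 shared 4.28% and Myd88 5.68% of such words with other genes, and none were shared in Tlr2, Tlr4, Tlr7, Tlr9, Cd14 or Ly96.

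Of the endosomal receptors, Tlr3, which binds double-stranded RNA and signals through Ticam1 (TRIF) rather than Myd88, rose in tMCAO brain. It lies on the minus strand of chromosome 8 (45395665 to 45411080). It stood at 35.2 and 41.1 CPM in the tMCAO brain libraries, 9.85 and 3.89 in those of tMCAO blood and 1.35 and 0.352 in the sham libraries. No groups overlapped, and the sham values rest on 21 and 5 counts. Tlr3 rose in tMCAO brain versus sham blood by 5.46 ± 0.80, or 44.2-fold (edgeR, adjusted p = 0.0161), a call that was lost without sham library 1 (adjusted p = 0.107) or 2 (adjusted p = 0.114). The log2 difference was 2.47 ± 0.68 in tMCAO brain versus tMCAO blood (edgeR, adjusted p = 0.0823) and 2.99 ± 0.74 in tMCAO blood versus sham blood (edgeR, adjusted p = 0.0595). Without library 1 of both tMCAO groups the log2 change in brain versus sham blood was 5.54, given with no test. An antisense gene, Gm45542, overlaps 381 exon bases of Tlr3, and whether counting used strand is not given in the sources used here.

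Tlr7, a receptor for single-stranded RNA, had the most regular steps between the groups. Its locus is 167304929 to 167330558 on the minus strand of chromosome X. It stood at 167 and 119 CPM in the tMCAO brain libraries, 82.6 and 81.1 in those of tMCAO blood and 43.5 and 39.6 in the sham libraries. No groups overlapped, and the tMCAO blood libraries were within a few percent of each other, unlike their levels of Cd14, Tlr2 and Tlr4. Tlr7 rose in tMCAO brain versus sham blood by 1.79 ± 0.28, or 3.45-fold (edgeR, adjusted p = 0.0185). Without library 1 of both tMCAO groups the log2 difference was 1.495, given with no test. The call was lost without brain library 1 (edgeR, adjusted p = 0.0608), sham library 1 (adjusted p = 0.187) or sham library 2 (adjusted p = 0.194). The log2 difference was 0.81 ± 0.27 in tMCAO brain versus tMCAO blood and 0.98 ± 0.27 in tMCAO blood versus sham blood (edgeR, adjusted p = 0.1203 and 0.0762).

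Tlr9, the receptor for unmethylated CpG DNA, was the rarest of the 10 transcripts. It lies on the plus strand of chromosome 9 (106222598 to 106226883). It had 56 and 33 counts in the tMCAO brain libraries, 4 and 2 in those of tMCAO blood and 10 and 6 in the sham libraries, or 3.39 and 1.35, 0.215 and 0.0997 and 0.642 and 0.422 CPM. The tMCAO blood libraries were lowest and the brain libraries highest, with no overlap. The ratio of pooled counts per library size was 14.0 for tMCAO brain versus tMCAO blood, with an exact 95% interval of 6.17 to 39.1 that covers counting error only. It was 0.289 (0.0927 to 0.778) for tMCAO blood versus sham blood and 4.04 (2.36 to 7.37) for tMCAO brain versus sham blood. With the spread between libraries in the fit, no difference passed the threshold (log2 3.86 ± 0.97, −1.72 ± 0.95 and 2.13 ± 0.88; edgeR, adjusted p = 0.0708, 0.272 and 0.166).

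Myd88, the adaptor the other receptors share, had the smallest range of the 10 genes as a ratio of the highest to the lowest library. It lies on the minus strand of chromosome 9 (119335934 to 119341411) and shares 290 exon bases with Acaa1a on the opposite strand. It stood at 127 and 97.5 CPM in the tMCAO brain libraries, 100.3 and 71.1 in those of tMCAO blood and 63.9 and 90.3 in the sham libraries. Tlr4, by contrast, ran from 4.17 to 129 CPM over the same libraries. Brain libraries were above both sham libraries, and tMCAO blood overlapped with both other groups. The log2 difference was 0.39 ± 0.32 in tMCAO brain versus tMCAO blood (95% interval −0.40 to 1.17; edgeR, adjusted p = 0.467), 0.15 ± 0.32 in tMCAO blood versus sham blood (95% interval −0.63 to 0.93; adjusted p = 0.783) and 0.54 ± 0.32 in tMCAO brain versus sham blood (95% interval −0.25 to 1.32; adjusted p = 0.319). Each interval included a 1.8-fold increase.

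Levels of different genes were compared per kilobase of exon. In sham blood the highest were Myd88, at 29.9 ± 7.25 CPM per kb (SD, n = 2), Tlr1 at 26.8 ± 2.79 and Ly96 at 22.2 ± 4.05, which did not differ beyond their spread. Tlr7 followed at 10.2 ± 0.665 and Cd14 at 4.99 ± 2.13, with Tlr6 at 2.60 ± 0.0221, Tlr2 at 2.20 ± 0.0954 and Tlr4 at 1.13 ± 0.535, while Tlr3 (0.163 ± 0.135) and Tlr9 (0.153 ± 0.0447) were lowest. In tMCAO blood the order began with Cd14 at 217.5 ± 173.8 CPM per kb and Ly96 at 99.1 ± 47.0. Myd88 followed at 33.3 ± 8.04 and Tlr7 at 20.1 ± 0.263. The spread of Cd14 between libraries reached down past the mean of Ly96. Within each library Cd14 was the higher, at 340 against 132 and 94.6 against 65.8. Tlr4 (14.5 ± 12.3), Tlr2 (13.5 ± 12.5) and Tlr1 (11.2 ± 1.70) had overlapping spreads, though Tlr4 was above Tlr2 in both libraries. Tlr6 (4.96 ± 2.21), Tlr3 (1.32 ± 0.810) and Tlr9 (0.0453 ± 0.0235) were lower. In tMCAO brain Cd14 stood at 1661 ± 214 CPM per kb, Tlr2 at 186 ± 4.598, Ly96 at 75.7 ± 56.5, Myd88 at 43.5 ± 8.004 and Tlr7 at 35.1 ± 8.24. Of these, Cd14 and Tlr2 stood apart from their neighbours, and the spreads of Ly96, Myd88 and Tlr7 overlapped. In both libraries Ly96 and Myd88 were above Tlr7, while Ly96 and Myd88 changed places. Tlr1 (21.3 ± 7.20), Tlr4 (13.5 ± 9.31), Tlr6 (7.62 ± 3.45) and Tlr3 (7.32 ± 0.807) came next, with overlapping spreads between neighbours. In both libraries Tlr1 was above Tlr4 and Tlr4 above Tlr6, while Tlr6 and Tlr3 changed places. Tlr9 was last at 0.681 ± 0.415. Cd14 thus moved from rank 5 in sham blood to rank 1 in both tMCAO groups, and Tlr2 from rank 7 to rank 2 in tMCAO brain.

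**Figure D4:**
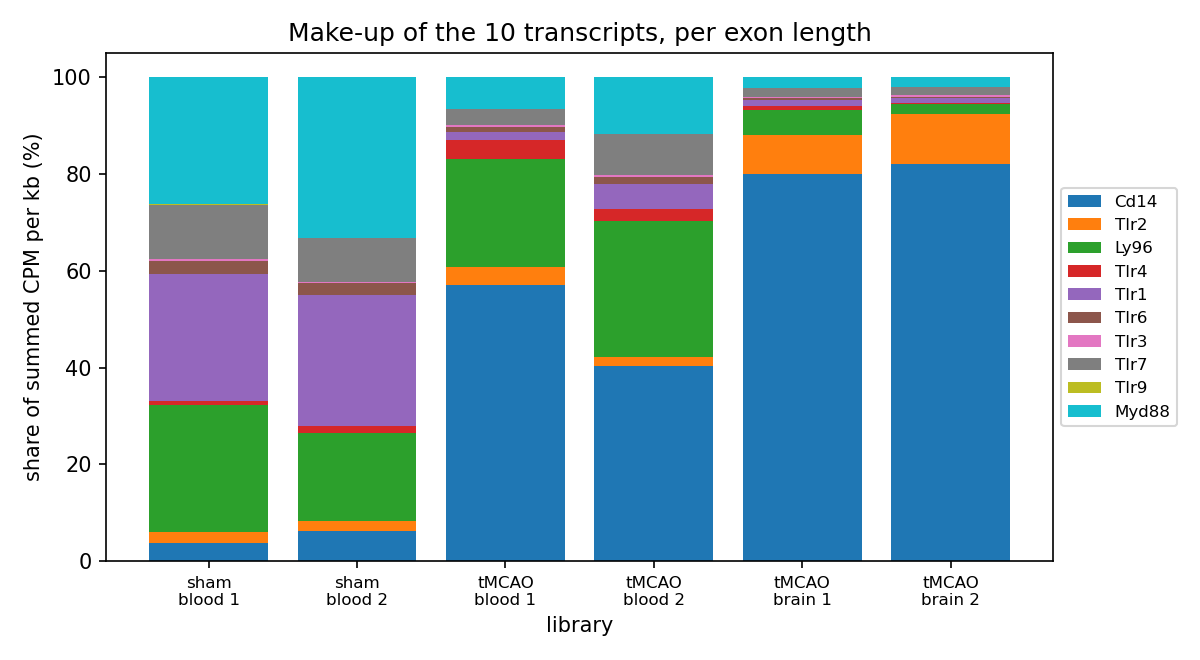
Share of each gene in the summed CPM per kilobase of the 10 genes, in percent, for each library. Cd14 made up 3.68% and 6.14% of the sum in sham blood, 57.1% and 40.3% in tMCAO blood and 80.0% and 82.1% in tMCAO brain.

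The 10 genes together made up 0.364% and 0.360% of the total in the tMCAO brain libraries, 0.113% and 0.0588% in those of tMCAO blood and 0.02501% and 0.0280% in the sham libraries. Cd14 alone held 71.7% and 72.8% of these counts in the tMCAO brain libraries, 50.3% and 33.6% in those of tMCAO blood and 2.47% and 3.98% in the sham libraries. Neither share overlapped between groups, and the 95% Wilson intervals, which cover counting error only, were within 0.0027 points of the first and 0.936 points of the second. Set against the summed counts of the 26 monocyte, macrophage and microglia markers, Cd14 had 62.9 and 121 counts per 1000 marker counts in the tMCAO brain libraries, 19.7 and 15.6 in those of tMCAO blood and 0.799 and 1.78 in the sham libraries. The order of the groups for Cd14 was thus the same per marker count as in CPM. Tlr2 had 11.1 and 26.5 per 1000 in the tMCAO brain libraries, 2.25 and 1.35 in those of tMCAO blood and 0.850 and 1.08 in the sham libraries, again without overlap. Tlr4 had 2.24 and 1.79 in the tMCAO brain libraries, 4.29 and 3.07 in those of tMCAO blood and 0.553 and 1.33 in the sham libraries, so that the tMCAO blood libraries were highest on this scale. Tlr1 had 1.77 and 2.51 in the brain libraries, 1.11 and 3.94 in those of tMCAO blood, and 10.98 and 15.2 in the sham libraries, highest in sham blood. Tlr7 had 3.35 and 5.55 in the brain libraries, 2.76 and 7.72 in those of tMCAO blood, and 5.75 and 6.27 in the sham libraries, so that both brain libraries were below both sham libraries per marker count, while its CPM was highest in brain. Ly96 had 2.37 and 1.70 in the brain libraries, 4.51 and 6.40 in those of tMCAO blood, and 3.38 and 3.12 in the sham libraries, lowest in brain. Myd88 had 2.54 and 4.53 in the brain libraries, 3.35 and 6.76 in those of tMCAO blood, and 8.47 and 14.3 in the sham libraries, highest in sham blood. Tlr6 had 0.752 and 0.897 in the brain libraries, 0.811 and 1.20 in those of tMCAO blood, and 1.29 and 1.53 in the sham libraries. It was thus highest in sham blood per marker count. Tlr9 had 0.0679 and 0.0626, 0.00719 and 0.00948, and 0.0850 and 0.0669 in the same order, so that brain and sham blood overlapped. Tlr3 had 0.704 and 1.91, 0.329 and 0.370, and 0.179 and 0.0557, the order of its CPM. Lyz2 is part of this marker sum, so these ratios also follow its level.

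The likeness of profiles over the 6 libraries was measured as Pearson's r of log2 CPM among 6462 or, for Tlr3, Tlr6 and Tlr9, 6463 candidate genes whose mean was 20 CPM or more. The libraries come from 3 groups and share depth and composition, so these values are descriptions. Tlr2 was most like Tifa (r = 0.999), Rab20 (0.996) and Gpr84 (0.995), and Cd14 was like Rlim (0.998) and Tcf4 (0.997). Tlr4 was most like Erp29 (0.998), Tnfrsf1a (0.995) and Slc15a4 (0.994), and Ly96 most like Pacs2 (0.998), Clec4d (0.994) and Acap2 (0.994). Tlr1 was most like Matk (0.996), Inpp5k (0.991) and C87436 (0.991), and Tlr6 most like Rilpl2 (0.996), Klhl24 (0.995) and Atp6v0b (0.993). Tlr3 was most like Tbc1d22a (0.996), Sh3glb1 (0.994) and Fosl2 (0.992), Tlr7 most like Rbbp8 (0.998), Slc29a3 (0.996) and Snx30 (0.996), and Tlr9 most like Sft2d1 (0.995), Ebi3 (0.989) and Gripap1 (0.989). Myd88 was most like Fbxo6 (0.980), Dnajb12 (0.979) and Atp6v1b2 (0.976), and had only 10 genes with r over 0.95, where Cd14 had 234 and Tlr2 had 204. Among the 45 pairs of the 10 genes the median r was 0.707, with 9 pairs over 0.9 and 7 below 0. Tlr7 and Cd14 had r = 0.965, Tlr4 and Ly96 0.915, and Tlr1 and Ly96 −0.562.

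The rest of the pathway was read from 7 lists. Of the other 5 receptors, Tlr13, which binds bacterial ribosomal RNA in mice, stood at 165 and 91.1 CPM in the tMCAO brain libraries, 177 and 111 in those of tMCAO blood and 20.03 and 16.5 in the sham libraries. It was the 1 gene of this list of 5 to rise versus sham blood, where 8.01% of all tested genes rose in brain and 4.33% in tMCAO blood, by 2.80 ± 0.42 in brain (edgeR, adjusted p = 0.01704) and 2.98 ± 0.42 in tMCAO blood (edgeR, adjusted p = 0.0313), and brain and blood of tMCAO mice overlapped (−0.18 ± 0.39; adjusted p = 0.799). Tlr8, a further endosomal receptor, stood at 34.4 and 6.54, 21.05 and 13.9 and 1.86 and 5.56 CPM in the same order, with tMCAO brain overlapping tMCAO blood, and Tlr5, Tlr11 and Tlr12 were under 8 CPM in every library. A list of 5 genes is too short to read a share from. The list median was 2.80 and 2.23 versus sham blood in brain and blood, and 1.17 in tMCAO brain versus tMCAO blood.

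Receptor cofactors and chaperones (11 genes) included 5 that rose and 0 that fell in tMCAO brain versus sham blood, where 8.01% and 2.62% of all tested genes did, with a list median of 1.62. Versus tMCAO blood 2 rose and 0 fell (median 1.41), beside 3.53% and 1.37% of all genes. In tMCAO blood versus sham blood 1 rose and 0 fell (median 0.86), beside 4.33% and 3.15%, and a single call among 11 genes is near that share. Unc93b1, which carries the endosomal receptors to their compartment, stood at 1170.0 and 701 CPM in the tMCAO brain libraries, 189 and 111 in those of tMCAO blood and 75.1 and 90.6 in the sham libraries. It rose in brain by 3.50 ± 0.45 versus sham blood (edgeR, adjusted p = 0.0138) and by 2.64 ± 0.44 versus tMCAO blood (edgeR, adjusted p = 0.0341). Pld3, a lysosomal nuclease, rose alongside, by 3.31 ± 0.42 and 2.87 ± 0.41 (edgeR, adjusted p = 0.0128 and 0.0265). Ly86 (MD-1) and its partner Cd180 rose in brain versus sham blood by 4.06 ± 0.50 and 3.89 ± 0.47 (edgeR, adjusted p = 0.0123 and 0.01204). Ly86 was the only one of the 11 to rise in tMCAO blood, by 2.15 ± 0.46 (edgeR, adjusted p = 0.0475). This call was lost in 5 of the alternative settings, among them DESeq2 size factors (edgeR, adjusted p = 0.0513).

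Of the adaptors other than Myd88 (4 of 5 tested), 1 rose and 0 fell in tMCAO brain versus sham blood, and of the kinases and ubiquitin ligases (22 genes) 4 rose and 1 fell, where 8.01% of all tested genes rose and 2.62% fell. Their medians were 1.92 and 0.17. Versus tMCAO blood 1 adaptor and 1 kinase rose and 0 fell, where 3.53% of all genes rose and 1.37% fell, with medians of −0.08 and −0.02. Their medians in tMCAO blood versus sham blood were 2.00 and 0.27, with 1 adaptor and 2 kinases that rose and 0 that fell, beside 4.33% and 3.15% of all genes. The kinase counts in the last 2 comparisons are near those shares, and 4 adaptors are too few to read a share from. Of the adaptors, Pik3ap1 (BCAP), which links receptors to phosphoinositide 3-kinase, rose in brain by 3.39 ± 0.59 versus sham blood and 3.75 ± 0.60 versus tMCAO blood (edgeR, adjusted p = 0.0238 and 0.0327). Tirap (MAL), which bridges Tlr2 and Tlr4 to Myd88, rose in tMCAO blood versus sham blood by 2.44 ± 0.46 (edgeR, adjusted p = 0.0387), from 6.87 and 4.15 CPM in sham blood to 33.3 and 26.7. Syk stood at 119 and 85.4 CPM in the tMCAO brain libraries, 157 and 91.8 in those of tMCAO blood and 30.2 and 25.2 in the sham libraries, and rose by 1.88 ± 0.36 in brain and 2.17 ± 0.37 in tMCAO blood (edgeR, adjusted p = 0.03001 and 0.03498). Irak2, a kinase of the Myd88 complex, rose in brain by 2.22 ± 0.45 versus sham blood and was the 1 gene of its list to rise versus tMCAO blood, by 2.91 ± 0.46 (edgeR, adjusted p = 0.0338 and 0.0319). Btk rose by 2.52 ± 0.54 in brain and Mapk14 (p38) by 1.31 ± 0.25 in tMCAO blood, while Ikbke fell in brain (log2 −2.14 ± 0.38) (edgeR, adjusted p = 0.0387, 0.0402 and 0.0252), all versus sham blood.

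Transcription factors downstream (12 genes) included 6 that rose in tMCAO brain versus sham blood and 6 that rose and 1 that fell versus tMCAO blood, with medians of 1.74 and 2.13. Of all tested genes, 8.01% rose in the first of these and 3.53% rose and 1.37% fell in the second. In tMCAO blood versus sham blood 2 rose and 2 fell, with a median of −0.21, where 4.33% of all genes rose and 3.15% fell. Rel, an NF-kB subunit, stood at 253 and 480.0 CPM in the tMCAO brain libraries, 38.2 and 52.8 in those of tMCAO blood and 50.3 and 56.99 in the sham libraries. It rose by 2.77 ± 0.41 and 3.01 ± 0.41 in the 2 comparisons (edgeR, adjusted p = 0.0164 and 0.0248). Its relative Relb fell in tMCAO blood versus sham blood (log2 −1.70 ± 0.33; edgeR, adjusted p = 0.0402), and rose in brain against both (1.68 ± 0.33 and 3.38 ± 0.35; adjusted p = 0.0312 and 0.0167). With raw library totals both calls of Relb versus sham blood were lost (edgeR, adjusted p = 0.0673 in blood and 0.0621 in brain). In all, the blood call of Relb was lost in 6 of the alternative settings and the brain call in 5. Irf8, a factor of myeloid cells, stood at 409 and 404, 90.7 and 72.1 and 26.3 and 33.6 CPM and rose at each step (edgeR, adjusted p = 0.0418 and 0.0223). Each of these 2 calls of Irf8 was lost in 6 of the alternative settings. Irf7, the interferon factor downstream of Tlr7 and Tlr9, fell in tMCAO blood versus sham blood (log2 −1.76 ± 0.33) and rose in brain versus tMCAO blood by 1.98 ± 0.33 (edgeR, adjusted p = 0.0378 and 0.0341). Fos rose in brain by 4.70 ± 0.92 versus sham blood (edgeR, adjusted p = 0.0313). Cebpb, named after its value was seen as the 1 factor that fell between tMCAO blood and brain (−2.57 ± 0.44; edgeR, adjusted p = 0.03499), rose in tMCAO blood versus sham blood by 4.38 ± 0.48 (adjusted p = 0.0313).

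The genes listed as inhibitors of receptor signalling (18 genes) included 7 that rose and 0 that fell in tMCAO brain versus sham blood. Versus tMCAO blood 5 rose and 0 fell, and the medians were 1.26 and 0.40. The shares of all tested genes that rose were 8.01% and 3.53% there, and 2.62% and 1.37% fell. The list was not uniformly higher in brain. Versus sham blood, 10 of the 18 were higher and 6 lower without overlap, where the shares over all tested genes were 34.9% and 29.7%. A place on this list does not show that a gene inhibited signalling in these cells. Tnfaip3 (A20), which removes ubiquitin chains from signalling proteins, stood at 441 and 784 CPM in the tMCAO brain libraries, 22.9 and 25.96 in those of tMCAO blood and 43.3 and 77.4 in the sham libraries. The 4 named genes of this list, Tnfaip3, the nuclear IkB proteins Nfkbid and Nfkbiz, and the RNase Zc3h12a, rose in brain versus sham blood by 3.34 ± 0.46, 3.46 ± 0.31, 3.40 ± 0.33 and 3.10 ± 0.50 (edgeR, adjusted p = 0.0146, 0.00841, 0.00914 and 0.0196). In tMCAO blood only Inpp5d (SHIP-1) of the list rose, by 1.16 ± 0.25 (edgeR, adjusted p = 0.0481), with a list median of −0.42. Its call was lost in 8 of the alternative settings. That 1 call among 18 genes is near the 4.33% of all genes that rose.

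Genes induced by the receptors, of which 21 of 24 were tested, had the highest median of the 7 lists in each comparison. In tMCAO brain 14 rose versus sham blood and 7 versus tMCAO blood, with medians of 6.95 and 3.66 and 0 that fell, where 8.01% and 3.53% of all tested genes rose. Il1b, the cytokine interleukin-1 beta, stood at 2160.1 and 1804 CPM in the tMCAO brain libraries, 16.1 and 7.13 in those of tMCAO blood and 14.9 and 33.6 in the sham libraries. It rose in brain by 6.35 ± 0.69 versus sham blood and 7.41 ± 0.72 versus tMCAO blood (edgeR, adjusted p = 0.00994 and 0.0151). Tnf and Cd86, a cytokine and a co-stimulatory ligand, rose versus sham blood by 5.002 ± 0.47 and 3.47 ± 0.36 (edgeR, adjusted p = 0.00856 and 0.00961). Ptgs2, the inducible cyclooxygenase, had 9911 counts over the brain libraries, 3 over tMCAO blood and 6 over sham blood, a pooled ratio of 3113 (exact 95% interval 1065 to 15099, counting error only) versus tMCAO blood and 1200.0 (551 to 3271) versus sham blood. In tMCAO blood versus sham blood, 0 of the 21 passed the threshold by edgeR, where 7.48% of all genes did in either direction. The median of 2.36 was above the 0.11 of all genes, and the 2 genes of the list that were most abundant over the 6 libraries were Ccl4 and Il1b. Ccl4, a chemokine, had 88.5 and 7.18 CPM in the tMCAO blood pair and 6.61 and 1.48 in the sham pair, a log2 difference of 3.56 ± 1.27 (edgeR, adjusted p = 0.127), and Il1b overlapped between the groups (−1.06 ± 0.56; adjusted p = 0.254).

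Without sham library 1 or 2, no gene of the whole table passed the threshold in either comparison with sham blood (edgeR), while 2490 to 3160 had an unadjusted p under 0.05. The same held in tMCAO blood versus sham blood without tMCAO blood library 1 (3843 genes with an unadjusted p under 0.05). Of the 17 named calls outside the 10 genes in tMCAO brain versus tMCAO blood, 2 kept their call in all alternative settings (Nfkbid and Ptgs2). Each of the 10 named calls in tMCAO blood versus sham blood and of the 22 in tMCAO brain versus sham blood was lost in at least 1 setting, and none changed direction. Losses were most frequent for Inpp5d in tMCAO blood versus sham blood (8 settings) and Relb in tMCAO brain versus sham blood (5). In tMCAO brain versus tMCAO blood they were most frequent for Irf7, Pik3ap1 and Unc93b1 (7 each).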

How the data were processed

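RNA of sorted cells was amplified with a SMART-Seq ultralow input kit, made into libraries with Nextera XT and sequenced paired-end at 75 bp, per the labels' protocols. The authors deposited integer read counts for each gene. STAR (version not given in the sources used here), HTSeq 0.11.2 and the build GRCm38 stand behind them, per the submitters' processing notes. The annotation release, strand setting and treatment of reads with several positions are not given in the sources used here. The kits carry no molecular identifiers, so counting intervals cover counting error only. Coordinates, exon lengths and overlaps came from GENCODE M21, which held 97.3% of the table's symbols, and promoters from RefSeq. No column was left out, and no row lacked a gene name.

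Libraries were grouped by title, and initials in the column names were matched to those titles. After filterByExpr (minimum count 10) and TMM scaling, the quasi-likelihood F test of edgeR 4.0.16 (R 4.3.3) was run in a single fit of 6 libraries without covariates (3 residual degrees of freedom). P-values were adjusted by Benjamini-Hochberg over the 16657 genes within each comparison, with a threshold of 0.05. CPM use library sizes multiplied by the TMM factors. Chi-square over its degrees of freedom between the libraries of a group was 204, 219 and 25.3 in tMCAO brain, tMCAO blood and sham blood, beyond counting noise, so each library was kept as a sample.

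The 10 genes, the lists, the marker genes, the tests and the alternatives were chosen with earlier results of these data known. All 10 genes are named in each comparison, and from each other list the 4 called genes of smallest adjusted p (fewer where fewer were called), or the 2 most abundant where none was; a selection of these is given. The 3 most alike genes of each were taken by Pearson's r, leaving out predicted genes and antigen receptor segments, and 1 of them is not reported here. The alternatives were DESeq2 size factors, raw totals, no filter, at least 5 CPM in 2 libraries, DESeq2 1.42.0, limma-voom (limma 3.58.1), a fit of 1 comparison's libraries alone, a replicate block, leave-one-out, and library 1 of both tMCAO groups left out together. On simulated counts with 200 changed genes, 16-fold changes were recovered for 59.7% of genes in tMCAO brain against tMCAO blood (15856 genes tested). The rates were 62.5% in tMCAO blood against sham blood (15909) and 58.8% in tMCAO brain against sham blood (15889). For 4-fold changes they were 12.2%, 11.9% and 11.1%. Each rate rests on 59 to 74 changed genes, and those dropped by the filter count as missed. In the data 816 to 1772 genes were called, so these rates do not measure the sensitivity of the comparisons.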

Additional observations from a re-analysis of the deposited data

How the results depend on the processing

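The counts of calls depended on the filter, the tool and single libraries. In tMCAO brain against tMCAO blood, 1 of the 10 genes and 816 of all genes were called; the counts were 4 and 3598 without a filter, 2 and 1237 with at least 5 CPM in 2 libraries, 5 and 3451 by DESeq2, 3 and 1446 by limma-voom, 0 and 26 with only the 2 groups compared, and 3 and 3609 without library 1 of both tMCAO groups. In tMCAO blood against sham blood, 1 and 1246 became 6 and 3611 without a filter, 7 and 3806 by DESeq2, and 7 and 3850 without library 1 of both tMCAO groups. The counts there were 2 and 1339 with raw totals, 3 and 1860 (of 10987 tested) with the stricter filter, and 4 and 1739 (of 14879 tested) with only the 2 groups compared. In tMCAO brain against sham blood, 4 and 1772 became 7 and 4458 without a filter, 7 and 4007 by DESeq2, 5 and 2752 with only the 2 groups compared, and 5 and 4979 without library 1 of both tMCAO groups. Leaving out 1 library at a time gave 0 to 1, 0 to 3 and 0 to 6 calls among the 10 genes and 31 to 313, 0 to 1240 and 0 to 2080 among all genes, in the order of the comparisons. A lone library was then assumed to vary like the other groups. Without library 1 of both tMCAO groups, the spread comes from the sham pair alone, so those counts are no test of stability. The cause was not tested.

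Directions turned only for differences that were not called. In tMCAO brain against tMCAO blood, Tlr4 ranged from −1.07 to 1.21 with 1 library left out and was 0.022 by limma-voom and 0.18 without library 1 of both tMCAO groups. With 1 library left out, Ly96 there ranged from −1.48 to 0.23, Tlr13 from −0.67 to 0.20 and Tlr8 from −1.42 to 0.98. Tlr8 was also −0.069 with raw totals, −0.31 by limma-voom and −1.16 without library 1 of both tMCAO groups. Myd88 in tMCAO blood against sham blood ranged from −0.12 to 0.42 with 1 library left out and was −0.075 without library 1 of both tMCAO groups.

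The labels number the libraries 1 and 2 in each group without saying that a number marks a shared animal or batch. Deviations of same-numbered libraries correlated at 0.304 between tMCAO brain and tMCAO blood, −0.0285 between tMCAO brain and sham blood and −0.0702 between the blood groups, so whether same-numbered tMCAO libraries share a source is undecided. With the replicate block, the counts were 1, 3 and 5 among the 10 genes and 803, 1318 and 1977 among all genes, with Tlr3 (0.0445) and Ly96 (0.0377) added in tMCAO blood against sham blood and Tlr4 (0.0478) in tMCAO brain against sham blood (edgeR, adjusted p in parentheses).

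Depth limits Tlr9 most, with 6 counts over tMCAO blood and 16 over sham blood, and Tlr3 in sham blood, with 26 counts.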
